A study of Rattus norvegicus with 4 samples.

Results

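The genes described here encode the junctions that hold epithelial cells together, the complexes that set their apical and basal sides, and regulators that keep cells epithelial. They were chosen by symbol: of 40 listed symbols, 32 were found among the 17768 genes of the deposited table. Marveld2, Cldn2, Cldn3, Epcam, Dsg2, Dsc2, Pkp2 and Crb3 were not analysed here. By role, 9 of the 32 genes belong to the tight junction, 5 are cadherin or catenin genes, 3 belong to the desmosome, 5 to polarity complexes, 6 are transcription or splicing regulators, and 4 act in surface proteolysis or membrane traffic.

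RNA was sequenced from NRK-52E, an established line from normal rat kidney that the labels describe as proximal tubular epithelial cells. The titles are lv_nc and lv_Mettl3, each on 2 libraries, and the comparison addresses gene expression when Mettl3, the catalytic subunit of the N6-methyladenosine writer, is overexpressed. Per the labels' protocols, murine Mettl3 cDNA in the vector pLVX-IRES-Puro was packaged in HEK 293T cells, virus was collected at 48 h, and infected cells were selected with 0.5 mg/ml and kept in 0.25 mg/ml puromycin with 10% serum. This protocol text stands on all 4 samples, as does the treatment label untreated. What nc means, which vector those cells carry, how many clones a line holds and whether replicates were separate cultures are not stated in the labels. A p-value here thus measures no more than the scatter of these 4 libraries, and that scatter may be technical.

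Tight junctions seal the space between epithelial cells: claudins and occludin span the membrane, and the scaffolds of the Tjp family tie them to actin. Adherens junctions couple cadherins to actin through catenins, and desmosomes couple desmosomal cadherins to keratin filaments through plakoglobin, plakophilins and desmoplakin. The Crumbs, Par and Scribble complexes place these junctions along the apical to basal axis, and tubule cells rely on them to keep the lumen apart from the blood side.

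Values are normalized read counts, which are gene reads divided by 1 size factor per library, and n = 2 libraries per group throughout. Libraries held 15068898 to 16622255 reads. The check of the label did not separate the groups: Mettl3 had 719 and 767 normalized counts in lv_nc against 757 and 699.6 in lv_Mettl3, a log2 fold change of -0.03 (SE 0.11, 95% interval -0.31 to 0.25, limma adjusted p = 0.931). The names lv_nc and lv_Mettl3 below therefore stand for the libraries labelled so, and a direction between them is a direction between labels. Whether reads of the murine cDNA were counted for the rat gene was not tested. Of the kidney epithelial markers, Krt8, a keratin of simple epithelia, had 28296 to 33065 normalized counts, and Cdh16 had at most 5 reads in any library. Of 13 proximal tubule markers 7 were found, with Ggt1 and Slc4a4 above a mean of 100. The 7 markers summed to 2663 and 2726 in lv_nc and 3461 and 3969 in lv_Mettl3, mostly from Ggt1. DESeq2 called Ggt1 higher in lv_Mettl3 (adjusted p = 0.0345, limma adjusted p = 0.378). Slc4a4 had 184 and 144 normalized counts in lv_nc against 127 and 149 in lv_Mettl3, with overlapping groups. Lrp2, Cubn, Aqp1, Gpx3 and Slc5a2 did not exceed 39.3 normalized counts in any library, and Lrp2 had 2 and 1 against 0 and 0 reads. Of 9 fibroblast markers 5 were found, with sums of 8495 and 15515 in the lv_nc libraries against 2890 and 2238 in the lv_Mettl3 libraries. These sums came mostly from Col1a1 and Col3a1. DESeq2 called Col1a1, Col1a2 and Col3a1 lower in lv_Mettl3, where the limma adjusted p was 0.299, 0.372 and 0.214. Postn had 379 and 357 normalized counts in lv_nc against 442 and 326 in lv_Mettl3, with overlapping groups. Pdgfra had at most 3 reads in any library. Smooth muscle markers (6 of 6 found) summed to 5782 and 2904 against 3185 and 3208. DESeq2 called Acta2 lower in lv_Mettl3 (adjusted p = 0.00406, limma adjusted p = 0.452). Acta2 had 1531 and 748 normalized counts in lv_nc against 542 and 488 in lv_Mettl3. Tagln, Myh11, Cnn1, Des and Myl9 had overlapping groups and no call. Their limma log2 fold changes were -0.22, 0.005, -0.12, 0.20 and 0.38. Markers of distal tubule and collecting duct (7 of 11 found), endothelium (3 of 6) and immune cells (3 of 6) summed to at most 58.9 in any library, with no marker above a mean of 100. The part of these markers in any difference below was not tested.

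The 32 genes fell into an abundant set and a set with low counts. In 17 genes the mean over the 4 libraries was at least 100, and the lowest of these means was 311. In the other 15 no library exceeded 56.2 normalized counts, or 53 reads. These low genes ranged from Grhl1, with 41 to 53 reads per library, to Cldn1, with 0 to 2. This division was made after the values were seen and is a description. The share above a mean of 100 was 53.1% of these genes, against 56.6% of all genes of the table. By role, 5 of 9 tight junction genes, 4 of 5 cadherin and catenin genes, 1 of 3 desmosome genes, 5 of 5 polarity genes, 1 of 6 regulators and 1 of 4 protease and traffic genes were abundant. In bulk libraries, fewer cells with a transcript and less of it per cell cannot be told apart.

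**Figure D1:**
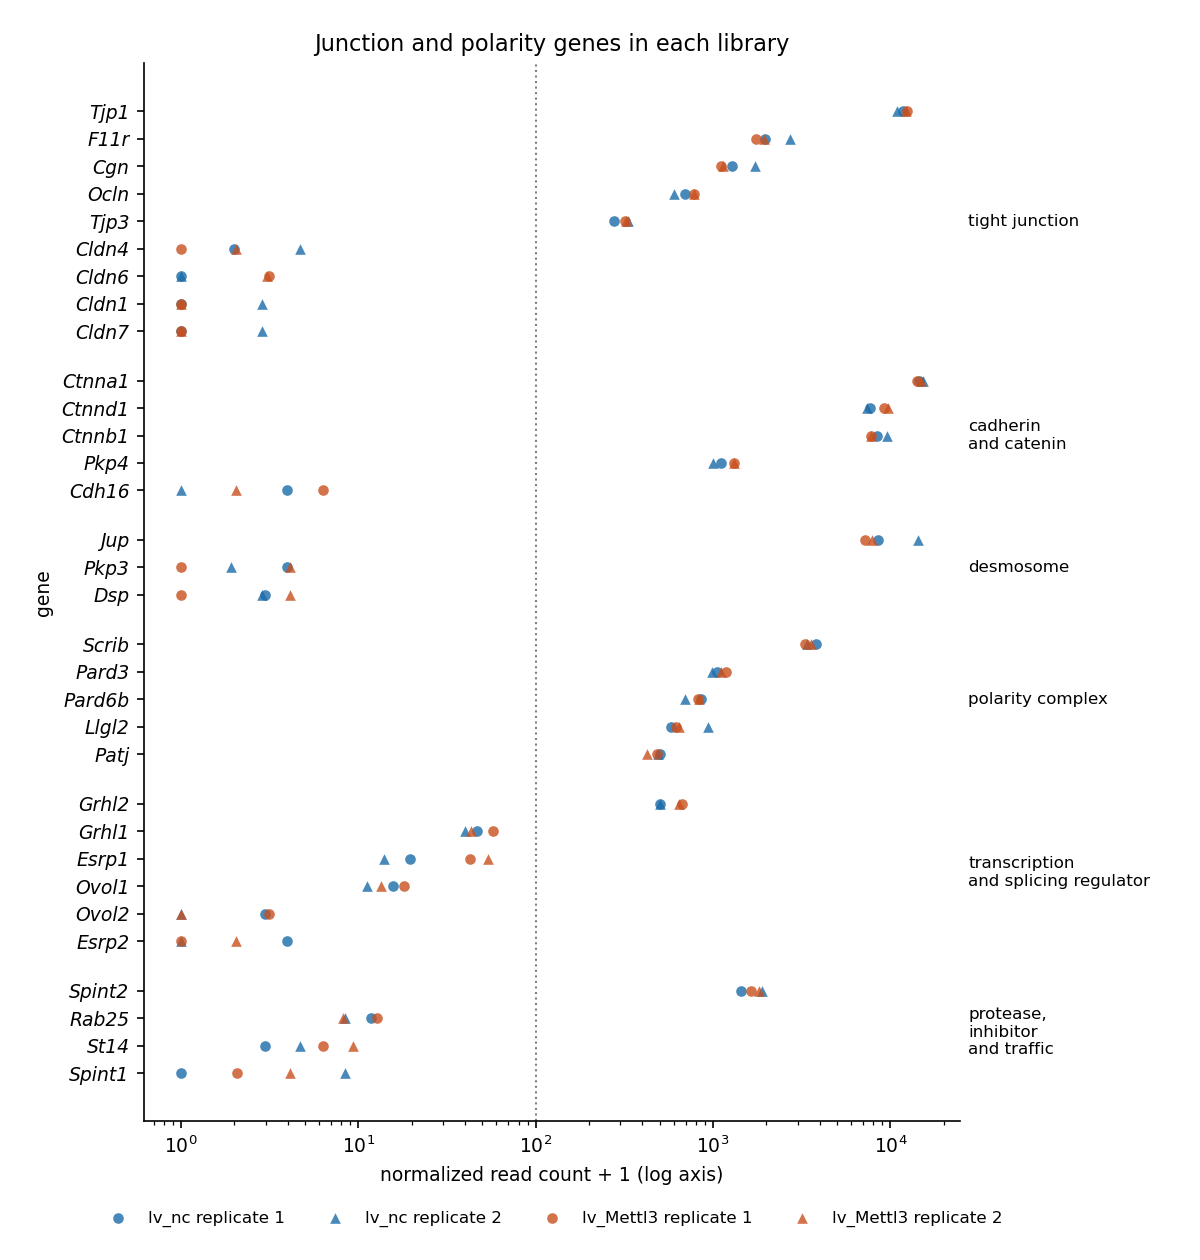
Normalized read count plus 1 (log axis) of each of the 32 genes in each of the 4 libraries, by role; circles are replicate 1, triangles replicate 2, blue lv_nc and orange lv_Mettl3, and the dotted line marks 100. The 17 abundant genes lie at or above 274 in every library and the other 15 at or below 56.2.

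Levels can be compared between genes per length, as normalized reads per kilobase of the deposited gene length (mean of 4 libraries). On that scale Ctnna1 was highest at 4053, above 98.5% of all genes of the table, followed by Ctnnb1 at 3488, Jup at 2132, Tjp1 at 1708, Ctnnd1 at 1630.0 and Spint2 at 1149. The cytoplasmic plaque proteins thus held the top 5 places, and Spint2, an inhibitor of membrane serine proteases, the sixth. The lowest abundant gene was Patj at 62.5 reads per kilobase, and the low genes lay between 0.140 and 29.1, with Grhl1 the highest. The gap between the sets was narrower on this scale than in counts.

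**Figure D2:**
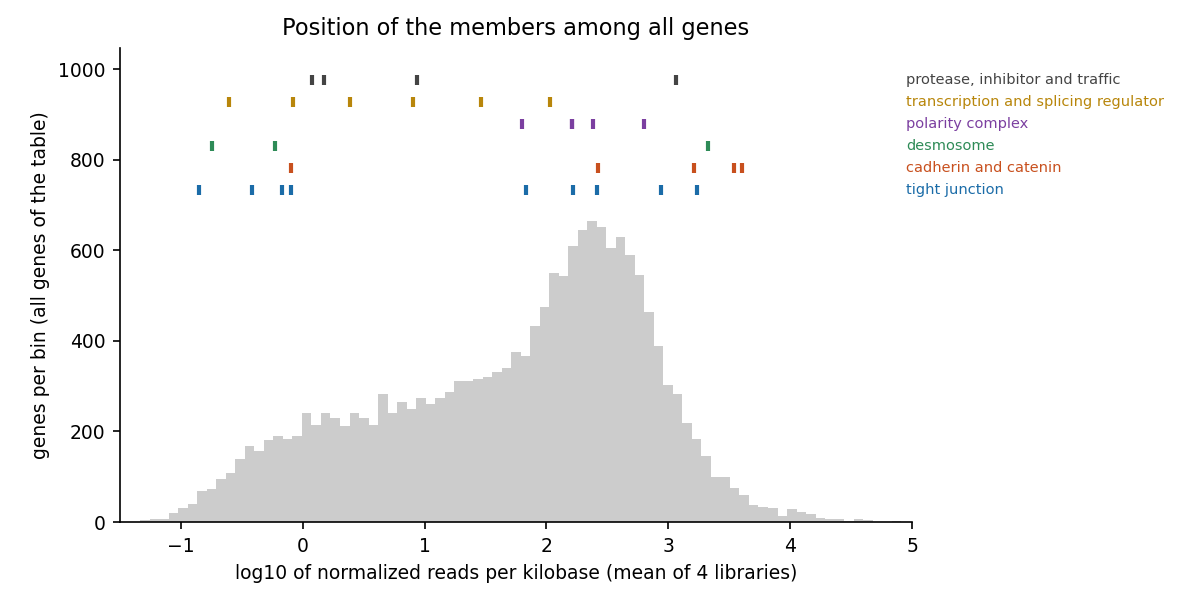
The grey histogram shows all genes of the table by log10 of normalized reads per kilobase (mean of 4 libraries), and coloured ticks show the 32 genes by role. Ticks lie at both ends, from 0.140 reads per kilobase for Cldn1 to 4053 for Ctnna1.

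The Snai and Zeb repressors bind the E-box CACCTG, whose reverse complement is CAGGTG, and they were measured in the same libraries, so the promoters were searched for it. The window was the 250 bases before the transcription start in RefSeq's GRCr8 annotation, both strands were read, and 19 of the 32 genes had an entry. Where any gene had several entries, the window with the most matches was counted. The motif occurred in 12 of 19 (63.2%), against 17.0% of 27457 genes of the promoter table and 16.5% of the 10712 of these that the expression table also lists. It was present in 6 of 12 abundant genes and in 6 of 7 low ones. Windows with 3 or more matches were found for 4 of 19 (21.1%), against 0.252% of the 10712 genes. These 4 are printed below because they hold the most matches; each runs from 5′ to 3′ toward the start, with the matches in capitals. A match is a run of letters, with no binding measured.
Cldn6 (chr10:13215558-13215807, plus strand, matches beginning at -197, -56 and -16 from the start): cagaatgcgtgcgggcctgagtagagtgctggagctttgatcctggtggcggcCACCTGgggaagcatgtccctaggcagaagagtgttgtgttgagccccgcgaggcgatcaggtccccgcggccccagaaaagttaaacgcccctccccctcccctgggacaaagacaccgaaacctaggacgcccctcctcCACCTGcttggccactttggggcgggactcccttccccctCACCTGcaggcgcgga
Cldn7 (chr10:55188420-55188669, plus strand, matches at -186, -147, -28 and -17): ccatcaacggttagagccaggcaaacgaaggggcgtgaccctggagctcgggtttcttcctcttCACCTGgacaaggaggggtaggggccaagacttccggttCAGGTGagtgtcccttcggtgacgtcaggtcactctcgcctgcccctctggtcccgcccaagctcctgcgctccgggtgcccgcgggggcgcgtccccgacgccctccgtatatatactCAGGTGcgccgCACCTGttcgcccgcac
Patj (chr5:118177373-118177622, plus strand, matches at -177, -39 and -11): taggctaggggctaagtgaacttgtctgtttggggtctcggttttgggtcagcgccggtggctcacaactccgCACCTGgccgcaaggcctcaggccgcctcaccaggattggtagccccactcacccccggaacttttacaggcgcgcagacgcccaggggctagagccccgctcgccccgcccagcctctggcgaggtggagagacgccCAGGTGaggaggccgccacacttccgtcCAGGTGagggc
Spint2 (chr1:93708092-93708341, minus strand, matches at -132, -113 and -68): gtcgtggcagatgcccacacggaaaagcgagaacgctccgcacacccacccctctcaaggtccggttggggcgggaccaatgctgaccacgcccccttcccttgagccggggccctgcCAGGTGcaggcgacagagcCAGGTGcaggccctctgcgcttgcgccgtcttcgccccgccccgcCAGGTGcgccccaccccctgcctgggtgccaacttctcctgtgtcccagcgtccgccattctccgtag

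These 4 genes lay at both ends of the range of levels. Cldn6 and Cldn7 had at most 2 reads in any library, while Patj was between 424 and 501 and Spint2 between 1427 and 1876 normalized counts. Of the other abundant genes, Tjp1, Ctnnb1, Pard3, Ctnnd1, Pkp4 and Cgn had an entry and no match, Tjp3, F11r and Jup had 1 match each, at -19, -130 and -101, and Ocln had 2, at -137 and -68.

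None of the 32 genes passed any of the 3 tests run on all 4 libraries. With limma on log2(value + 1), adjusted over 16391 genes, 0 of 30 tested genes passed an adjusted p of 0.05, against 0.0183% of all genes, and the smallest adjusted p was 0.401. The edgeR quasi-likelihood test on recovered reads called 0 (background 0.0305%), and DESeq2 called 0 of the 19 to which it gave an adjusted p (background 2.52%), with a smallest adjusted p of 0.115. Without adjustment, limma gave 5 of the 30 tested genes a p under 0.05, all higher in lv_Mettl3 (background 5.54% higher and 4.93% lower). Among these 5 was Cldn6, with 4 reads in all. DESeq2 gave 5 genes an unadjusted p under 0.05, 3 higher and 2 lower (background 7.44%, as 3.69% and 3.75%). Groups of 2 and 2 cannot give an exact permutation p below 1 in 3, so single genes were not tested that way.

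The values bound the differences more tightly for the abundant genes. Their log2 fold changes from limma ran from -0.55 to 0.39 with a median of 0.08, and for 16 of 17 (94.1%) the 95% interval lay within 2-fold in either direction, as it did for 88.4% of all genes with a mean of 100 or more. The exception was Jup. For the low genes this held in 0 of 13 tested. Over all 30 tested genes the median was 0.06, and 0.09 over the 25 with more than 3 reads in some library, against 0.01 over all genes. The groups did not overlap in 14 of 30 genes, 9 with lv_Mettl3 above and 5 below, where 45.0% of all genes did not overlap (23.5% above and 21.5% below). Among the abundant genes they did not overlap in 11 of 17, against 47.6% of all genes at that level.

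**Figure D3:**
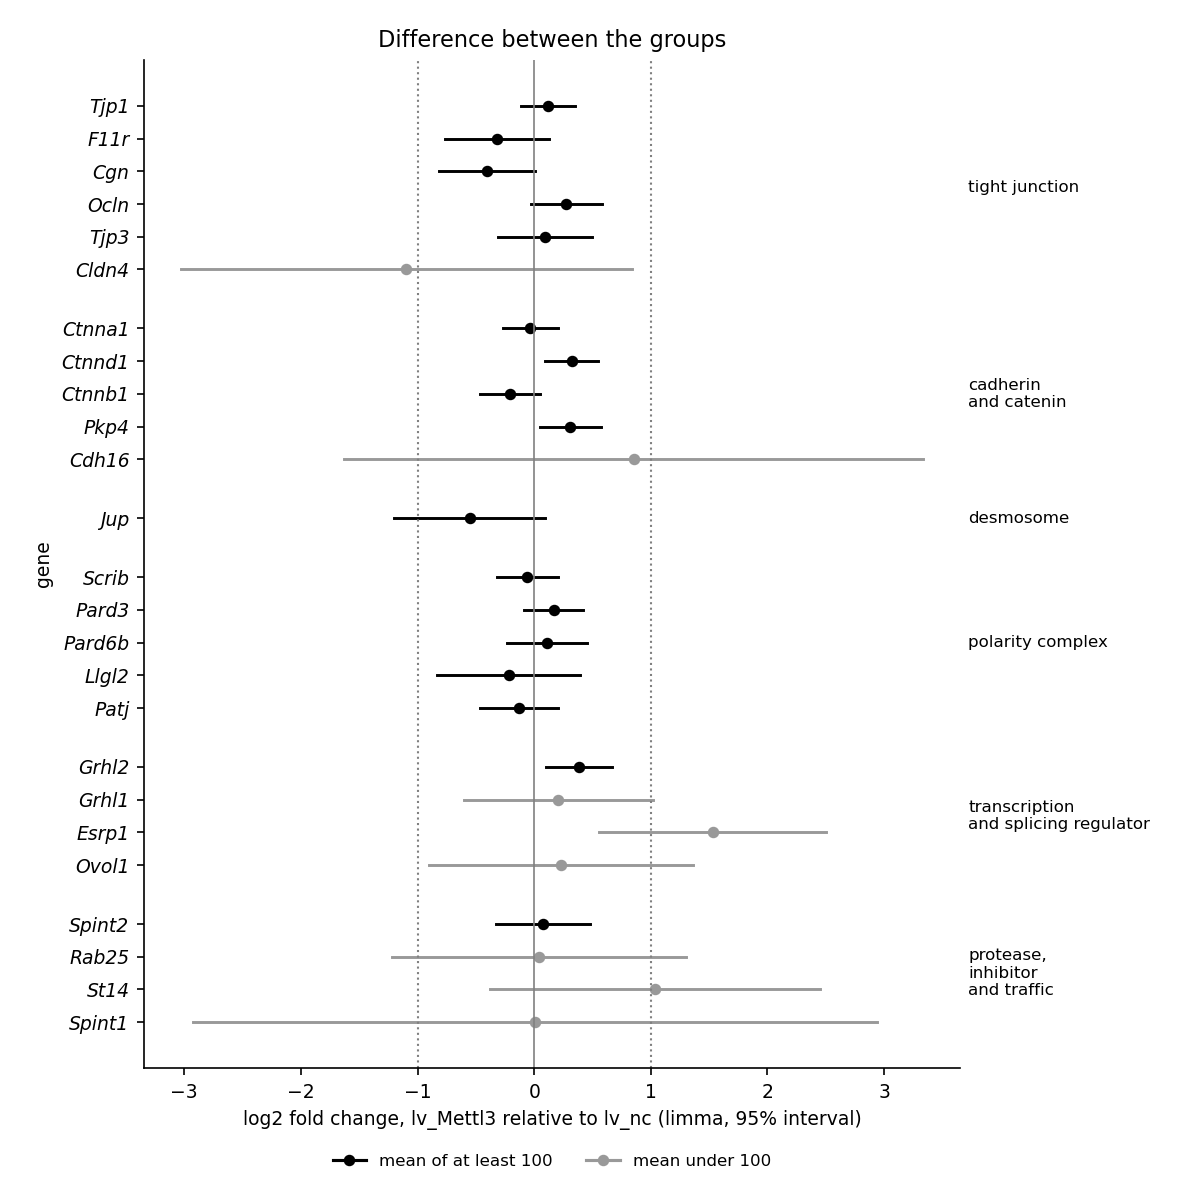
Log2 fold change of lv_Mettl3 relative to lv_nc from limma, with 95% intervals, for the 25 tested genes with more than 3 reads in some library; black marks a mean of at least 100, grey a lower one, and dotted lines mark 2-fold. Of the black intervals, that of Jup alone crosses a dotted line.

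In the tight junction, scaffolds, occludin and the single-pass protein F11r were abundant, and the 4 claudins found among these genes were at the limit of detection. Tjp1 (ZO-1; ENSRNOG00000011077, chr1:126146489-126227469, minus strand; build not stated in the sources used here), the scaffold that links claudins and occludin to actin, had 11767 and 10903 normalized counts in lv_nc against 12378 and 12196 in lv_Mettl3. Both lv_Mettl3 libraries lay above both lv_nc libraries, and the difference did not pass the test (limma adjusted p = 0.642). Tjp3, its paralog, had 274 and 330.5 normalized counts in lv_nc against 319 and 321 in lv_Mettl3, with overlapping groups. Per length, Tjp1 exceeded Tjp3 by 21.7 to 28.3 times in the 4 libraries.

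Ocln encodes occludin, the tetraspan protein of the tight junction strand. It had 692 and 604 normalized counts in lv_nc against 778 and 784 in lv_Mettl3, so the groups did not overlap and lv_Mettl3 was the higher, with a log2 fold change of 0.27 (SE 0.12, 95% interval -0.03 to 0.58, limma adjusted p = 0.502). F11r, the adhesion molecule JAM-A, had 1952 and 2698 normalized counts in lv_nc against 1754 and 1927 in lv_Mettl3. Here lv_Mettl3 lay below lv_nc, and lv_nc replicate 2 stood above the other 3 libraries; the log2 fold change was -0.32 (SE 0.17, 95% interval -0.77 to 0.13, limma adjusted p = 0.543). Cgn (cingulin; ENSRNOG00000020952, chr2:195909626-195935878, minus strand), a cytoplasmic partner of the Tjp scaffolds, had 1282 and 1725 normalized counts in lv_nc against 1109 and 1137 in lv_Mettl3. Cgn showed the same order of libraries as F11r, with means of 1504 ± 314 in lv_nc and 1123 ± 19.6 in lv_Mettl3 and a log2 fold change of -0.41 (SE 0.16, 95% interval -0.82 to 0.01, limma adjusted p = 0.486). In limma without lv_nc replicate 1 the log2 fold change was -0.55 for F11r and -0.62 for Cgn, and without lv_nc replicate 2 it was -0.086 and -0.19.

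Claudins set which ions and molecules pass between cells. Cldn1 had 2 reads in lv_nc replicate 2 and 0 in the other 3 libraries, and Cldn7 the same. Cldn4 had 1 and 4 against 0 and 1 reads in the lv_nc and lv_Mettl3 libraries in turn, and Cldn6 had 0 and 0 against 2 and 2. A count of 0 in a library allows up to 3 reads, or 2.77 to 3.18 normalized counts, for counting error alone. Cldn1, Cldn6 and Cldn7 are under that limit in all libraries, so no fold is given for them. Cldn6 was among the 12 genes with the smallest p (limma adjusted p = 0.464), on 4 reads in all. Cldn1 and Cldn7 did not reach the filter for testing.

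All 14 claudin genes of the table were then set side by side per length, a step chosen after the values were seen. One was abundant: Cldn12 had 819 and 777 normalized counts in lv_nc against 940.4 and 859 in lv_Mettl3, and its 244 normalized reads per kilobase made up 85.1% of the family sum. Cldn15 followed at 11.6, and Cldn4, Cldn6, Cldn7 and Cldn1 held ranks 11 to 14.

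All 3 catenins were among the most abundant of the 32 genes; beta-catenin values were lower and p120-catenin values higher in lv_Mettl3, and neither difference passed the test. Ctnna1, which binds beta-catenin and actin, had 14445 and 15259 normalized counts in lv_nc against 14159.5 and 14895 in lv_Mettl3, with overlapping groups and a limma adjusted p of 0.912. Ctnnb1 encodes beta-catenin, which binds classical cadherins and also acts in Wnt signalling. It had 8409.9 and 9573 normalized counts in lv_nc against 7745 and 7797 in lv_Mettl3, with lv_Mettl3 below lv_nc and a log2 fold change of -0.21 (SE 0.10, 95% interval -0.46 to 0.05, limma adjusted p = 0.515). Without lv_nc replicate 1 or 2 that change was -0.30 or -0.11 in limma.

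Ctnnd1 (p120-catenin; ENSRNOG00000030790, chr3:72002152-72053049, minus strand) binds the juxtamembrane part of cadherins and slows their uptake from the surface. Its values were 7712 and 7363 normalized counts in lv_nc against 9166 and 9669 in lv_Mettl3, with means of 7538 ± 247 in lv_nc and 9417 ± 356 in lv_Mettl3, and all lv_Mettl3 values lay above all lv_nc values. The log2 fold change was 0.32 (SE 0.09, 95% interval 0.10 to 0.55, limma adjusted p = 0.429), and DESeq2 gave an adjusted p of 0.290. Pkp4, a p120 relative found at adherens junctions and desmosomes, had 1105 and 1003 normalized counts in lv_nc against 1306 and 1307 in lv_Mettl3. Pkp4 had the same order, with a log2 fold change of 0.31 (SE 0.10, 95% interval 0.05 to 0.57, limma adjusted p = 0.452).

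Ratios per length do not depend on the size factors. Ctnnd1 over Ctnnb1 was 0.424 and 0.355 in lv_nc against 0.547 and 0.573 in lv_Mettl3, and these ranges do not overlap. Ctnna1 over Ctnnb1 was 1.14 and 1.06 against 1.21 and 1.27, again without overlap. These ratios were chosen after the values were seen and carry no test.

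Cdh16, the kidney-specific cadherin that lacks a catenin-binding tail, had 3 and 0 against 5 and 1 reads. Cdh1 (E-cadherin), given as a counterpart, had 9 and 1 against 3 and 2 reads, and Cdh2 (N-cadherin) 0 and 0 against 5 and 1. Of the 13 genes of the table whose symbol is Cdh and a number, 3 were abundant: Cdh3 (P-cadherin) at 1577 normalized reads per kilobase with 69.1% of the sum, Cdh24 at 611 with 26.8%, and Cdh18 at 63.3. Cdh24 and Cdh18 were named after their values were seen. Cdh1 ranked 7 and Cdh16 9 of the 13. Cdh3 had 6472 and 6074 normalized counts in lv_nc against 5405 and 5154 in lv_Mettl3, with lv_Mettl3 below lv_nc and a limma adjusted p of 0.466. In these libraries the abundant catenins thus stood beside abundant Cdh3 and Cdh24 transcripts and single-digit reads of Cdh1, Cdh2 and Cdh16.

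**Figure D4:**
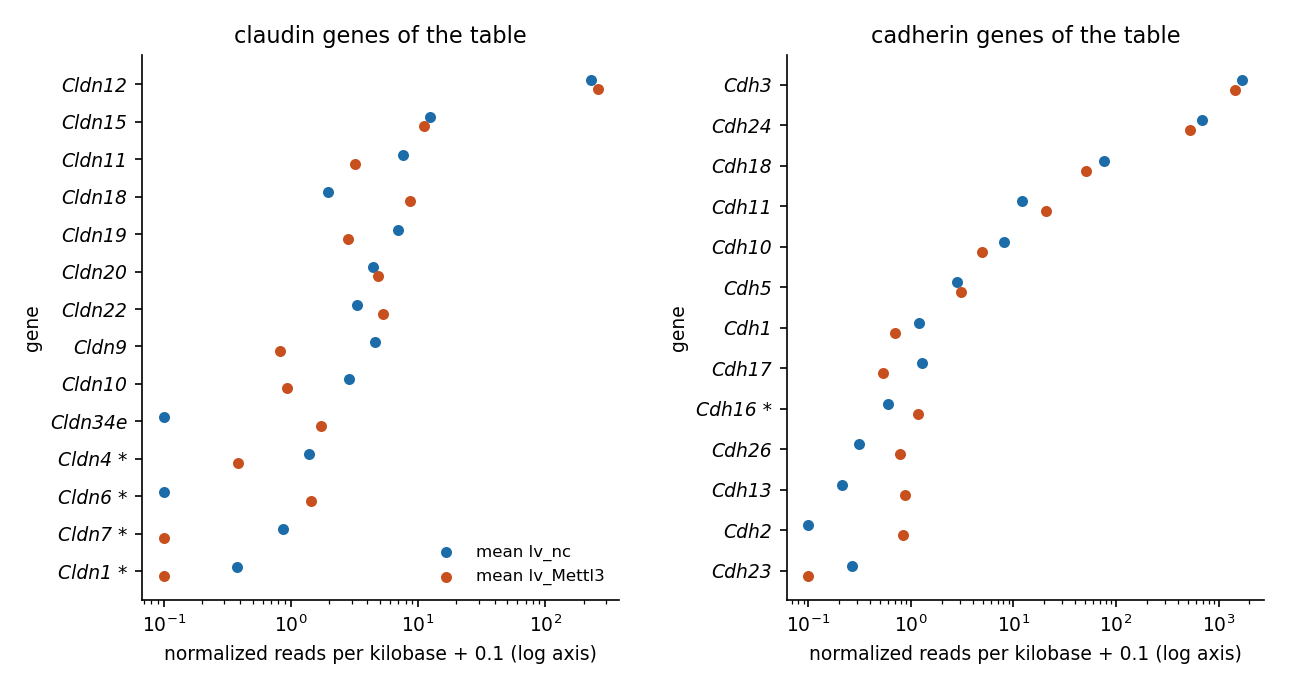
Group means of normalized reads per kilobase plus 0.1 (log axis) for the 14 claudin genes and the 13 numbered Cdh genes of the table, ordered by their mean; blue is lv_nc, orange lv_Mettl3, and asterisks mark the genes chosen by symbol for this description. Cldn12 (244) and Cdh3 (1577) lead their families, and the marked genes lie near the bottom.

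Of the 3 desmosome genes found among the 32, plakoglobin alone was abundant. Jup (ENSRNOG00000015380, chr10:88279632-88307412, minus strand) encodes plakoglobin, a relative of beta-catenin that serves both desmosomes and adherens junctions. It had 8523 and 14290.5 normalized counts in lv_nc against 7163 and 7895 in lv_Mettl3, and so lv_Mettl3 lay below lv_nc. The 2 lv_nc libraries differed from each other by 1.68-fold, more than the group means did (11407 ± 4078 in lv_nc and 7529 ± 518 in lv_Mettl3). The log2 fold change was -0.55 (SE 0.25, 95% interval -1.20 to 0.09, limma adjusted p = 0.502), and DESeq2 gave the smallest adjusted p of the 32 genes, 0.115. Without lv_nc replicate 1 the log2 fold change from limma was -0.93, and without lv_nc replicate 2 it was -0.18. Per length, Jup over Ctnnb1 was 0.549 and 0.808 in lv_nc and 0.501 and 0.548 in lv_Mettl3, so lv_nc replicate 2 stood apart and the other 3 libraries lay close together.

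Dsp, the desmoplakin that anchors keratin filaments, had 2 and 2 against 0 and 3 reads, and Pkp3, a desmosomal plakophilin, 3 and 1 against 0 and 3. Both are at or under the limit of 3 reads in each library. The keratin Krt8 had 29513 and 33065 normalized counts in lv_nc against 28296 and 32176 in lv_Mettl3, with overlapping groups, and periplakin (Ppl), a plakin that binds keratin filaments, had 758 and 975 normalized counts in lv_nc against 816 and 789.5 in lv_Mettl3. Of the other keratins found, Krt7 had 24 and 17 against 17 and 10 reads, and Krt19 had 2 reads in 1 library and 0 in the other 3; both were named after their values were seen.

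The 5 polarity genes were abundant in every library, and their log2 fold changes lay between -0.22 and 0.17 with no call. Pard3, the scaffold of the Par complex, had 1052 and 989 normalized counts in lv_nc against 1176 and 1115 in lv_Mettl3, with lv_Mettl3 above lv_nc and a log2 fold change of 0.17 (SE 0.10, 95% interval -0.09 to 0.42, limma adjusted p = 0.562). Pard6b, its partner that binds Cdc42 and atypical protein kinase C, had 851 and 693 normalized counts in lv_nc against 826 and 832 in lv_Mettl3, and the groups overlapped. Patj, the scaffold that joins the Crumbs complex to the junction, had 501 and 490.2 normalized counts in lv_nc against 483 and 424 in lv_Mettl3, with lv_Mettl3 below lv_nc (limma adjusted p = 0.713).

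Scrib and Llgl2 belong to the Scribble module of the basal and lateral membrane. Scrib had 3786 and 3379 normalized counts in lv_nc against 3294 and 3571 in lv_Mettl3, with overlapping groups. Llgl2 had 579 and 931 normalized counts in lv_nc against 620.2 and 642 in lv_Mettl3, where lv_nc replicate 2 stood above the other 3 libraries, 1.61-fold above its own replicate, and the groups overlapped. Per length its paralog Llgl1, which was named after its values were seen, exceeded Llgl2 by 3.49 to 4.66 times over the 4 libraries.

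The regulators of epithelial transcription and splicing held the gene with the smallest limma p of the 32, Esrp1, and the largest positive log2 fold change among the abundant genes, that of Grhl2; neither passed the test. Esrp1 (ENSRNOG00000008184, chr5:24576991-24631698, minus strand) encodes a splicing factor of epithelial isoforms. It had 18.6 and 12.9 normalized counts in lv_nc against 41.3 and 52.7 in lv_Mettl3, or 19 and 14 against 39 and 51 reads, so every lv_Mettl3 value was above every lv_nc value at a low level. Its log2 fold change was 1.53 (SE 0.38, 95% interval 0.56 to 2.50, limma adjusted p = 0.401), with adjusted p-values of 0.298 in DESeq2 and 0.359 in edgeR. Esrp2, the paralog, had 3 and 0 against 0 and 1 reads.

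Grhl2 (ENSRNOG00000007000, chr7:76059386-76197856, plus strand), a Grainyhead factor that activates junction genes such as claudins and E-cadherin, was the single abundant regulator. It had 498 and 503 normalized counts in lv_nc against 671 and 639 in lv_Mettl3, with means of 501 ± 3.44 in lv_nc and 655 ± 23.0 in lv_Mettl3. The groups did not overlap, the log2 fold change was 0.39 (SE 0.11, 95% interval 0.10 to 0.67, limma adjusted p = 0.442), and DESeq2 gave an adjusted p of 0.481. Grhl1, its paralog, had 45.9 and 38.8 normalized counts in lv_nc against 56.2 and 42.4 in lv_Mettl3, with overlapping groups, and per length Grhl2 exceeded it by 3.18 to 4.41 times. Ovol1 and Ovol2 are zinc finger repressors that oppose mesenchymal genes; Ovol1 had 14.7 and 10.2 normalized counts in lv_nc against 17.0 and 12.4 in lv_Mettl3, and Ovol2 had 2 and 0 against 2 and 0 reads.

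Of the genes for surface proteolysis and traffic, Spint2 had 1427 and 1876 normalized counts in lv_nc against 1637 and 1818 in lv_Mettl3, with overlapping groups. Its paralog Spint1 had 0 and 8 against 1 and 3 reads. St14 encodes matriptase, the membrane protease that both inhibitors restrain. St14 had 2 and 4 against 5 and 8 reads, with lv_Mettl3 above lv_nc and a log2 fold change of 1.04 (SE 0.55, 95% interval -0.38 to 2.45, limma adjusted p = 0.539). Rab25, an epithelial GTPase of apical recycling, had 11 and 8 against 11 and 7 reads, and its groups overlapped. The inhibitor Spint2 was thus present at no less than 1427 normalized counts in libraries with single-digit counts of its target St14.

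One library stood out in the abundant genes. Replicate 2 of lv_nc was the highest or the lowest of the 4 libraries in 14 of the 17 genes, 8 times highest and 6 times lowest, as it was for 73.7% of the 10051 genes at that level (mean 100 or more). The others were at an extreme in 7 (lv_nc replicate 1), 9 (lv_Mettl3 replicate 1) and 4 (lv_Mettl3 replicate 2) of the 17. The median absolute log2 difference between replicates over the 17 genes was 0.19 in lv_nc and 0.07 in lv_Mettl3, against 0.21 and 0.10 over all genes at that level.

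Leaving out its partner changed the calls. DESeq2 without lv_nc replicate 1, which leaves replicate 2 to stand for lv_nc, called 6 of 19 genes with an adjusted p, against 12.7% of all genes. Jup (adjusted p = 3.12e-17), F11r (0.0015), Cgn (0.00202), Ctnnb1 (0.0181) and Llgl2 (0.0495) were lower in lv_Mettl3 in that fit (background 5.62%), and Ctnnd1 (0.0051) was higher (background 7.12%). Without any of the other 3 libraries DESeq2 called 0 of the 32 genes, and limma called 0 in each of these 4 fits. That alternative was added after the data were seen, and a lone library is assumed to vary like the other group.

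**Figure D5:**
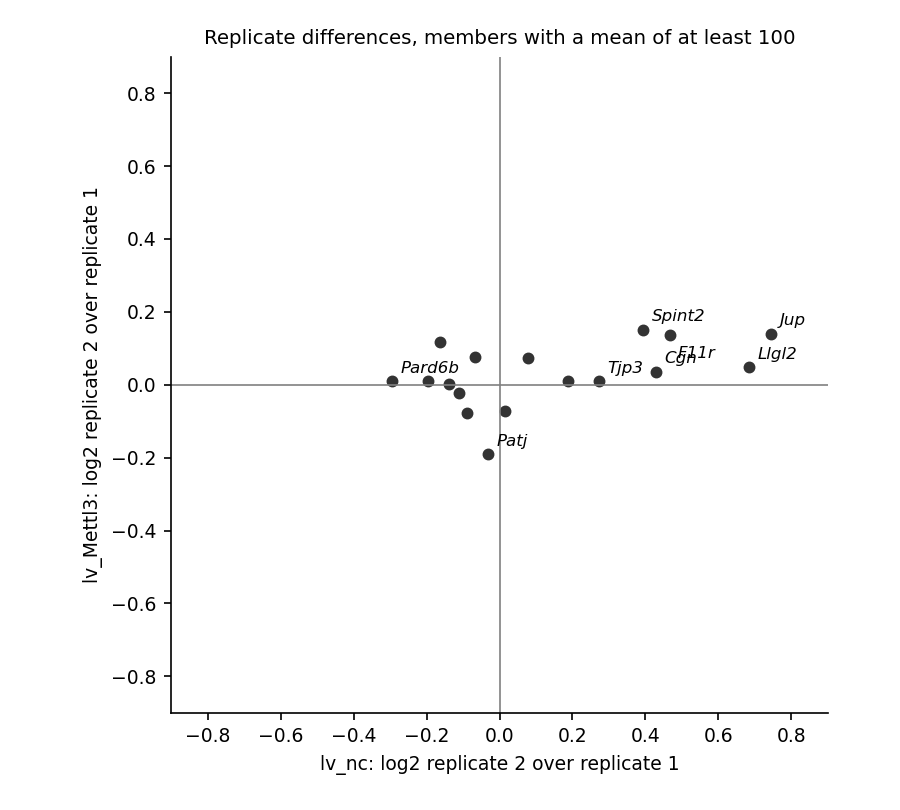
Log2 ratio of replicate 2 over replicate 1 within lv_nc (horizontal) and within lv_Mettl3 (vertical) for the 17 abundant genes, on axes of equal length. The points spread along the horizontal axis, where Jup, Llgl2, F11r and Cgn lie farthest to the right, and stay within 0.2 of 0 on the vertical one.

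Genes of the same structures outside this set were also read, from lists of 87 symbols of which 67 were found and 63 tested. Limma and edgeR called 0 of them, with 4 genes higher and 5 lower at an unadjusted limma p under 0.05 (background 5.54% and 4.93%). DESeq2 called 2 of the 48 with an adjusted p, both lower in lv_Mettl3. Its background of 2.52% joins both directions, as 183 genes higher and 135 lower of 12601. Whether these 2 calls exceed that background was not tested. Crb2, a Crumbs protein of the apical membrane, had 1432 and 1627 normalized counts in lv_nc against 968 and 1064 in lv_Mettl3, and the groups did not overlap; its log2 fold change was -0.59 (SE 0.11, 95% interval -0.88 to -0.29, limma adjusted p = 0.378) and the DESeq2 adjusted p was 0.0294. Snai1, a repressor of epithelial genes, had 179 and 288 normalized counts in lv_nc against 94.4 and 88.9 in lv_Mettl3, again without overlap, with a log2 fold change of -1.30 (SE 0.28, 95% interval -2.02 to -0.58, limma adjusted p = 0.385) and a DESeq2 adjusted p of 0.00902. Both DESeq2 calls were lost without lv_nc replicate 2 (adjusted p 0.176 for Crb2 and 0.749 for Snai1) and without either lv_Mettl3 library, and both genes were called without lv_nc replicate 1 (0.00121 and 0.00146).

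By list, 22 of 29 other tight junction genes, 12 of 15 adherens junction genes, 7 of 12 desmosome and keratin genes, 16 of 20 polarity genes and 10 of 11 regulators were found. The most abundant tight junction genes were Ybx3, a transcription factor that binds the Tjp1 scaffold, with 5059.8 and 4127 normalized counts in lv_nc against 5217 and 5431 in lv_Mettl3, and Lsr, the angulin of tricellular junctions, with 3584 and 3187 normalized counts in lv_nc against 3624 and 3635 in lv_Mettl3. In both genes lv_Mettl3 lay above lv_nc. Lmo7, an actin-linked protein of adherens junctions, had 8832 and 7647 normalized counts in lv_nc against 9421 and 9863 in lv_Mettl3, with the same order. Neither Ybx3, Lsr nor Lmo7 passed the test.

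The other repressors of epithelial genes gave no call. The Snai and Zeb factors among them bind the E-box searched for above, and their binding at any promoter was not measured here. Snai2 had 167 and 73.9 normalized counts in lv_nc against 209.9 and 213 in lv_Mettl3, so lv_Mettl3 was above lv_nc and the 2 lv_nc libraries lay far apart. Zeb1 had 643 and 655 normalized counts in lv_nc against 632 and 592 in lv_Mettl3, with lv_Mettl3 below lv_nc. Zeb2 had 87.0 and 57.2 normalized counts in lv_nc against 109 and 89.9 in lv_Mettl3, with lv_Mettl3 above, and Twist1 had 372 and 399.7 normalized counts in lv_nc against 395 and 422 in lv_Mettl3, with overlapping groups. Thus Snai1 and Snai2, close relatives, ordered the groups in opposite directions.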

How the data were processed

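The 40 symbols, the gene lists, the naming rule and the tests were chosen with earlier results of these data known. All found genes are given with values; fold changes with errors are printed for the 12 smallest limma p-values, except that of Cldn6, which is under the read limit. Of each list of other genes, those called by limma or DESeq2 are named, or the 2 highest means where none was called, besides Cdh1, Cdh2 and the Snai, Zeb and Twist genes as counterparts.

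Per the submitters' processing notes, CASAVA 1.4 and HISAT2 were used; no counter, build, kit or strand setting is named in the labels, so overlapping genes cannot be told apart. The deposited signal is gene counts that the authors divided by 1 size factor per library (1.02, 1.08, 0.943 and 0.968); 100% of values came out as whole reads within 0.001 reads. The authors' own log2 fold changes and p-values, also deposited, were not used. The table lists no gene without a read in the 4 libraries. Genes with an identifier but no name (945) were kept. A marker gene withheld for evaluation, and the sum that holds it, are not reported here.

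Limma 3.58.1 (trend) was run on log2(value + 1), leaving out genes that reached a value of 1 in fewer than 2 libraries, and p-values were adjusted by Benjamini-Hochberg at 0.05; small values are understated on that scale. DESeq2 1.42.0 and edgeR 4.0.16 on the recovered reads were alternatives, in R 4.3.3. In simulated data of 16391 genes for lv_Mettl3 against lv_nc, true 2-fold changes were recovered in 42 of 100 genes by limma and 67 by DESeq2. True 4-fold changes were recovered in 90 and 96, and 2.22% and 13.8% of calls were false. Changes were placed only in genes above a mean count that none of the low genes reached. The recovery rates thus do not cover the low genes. Figures used Python 3.11.15 and matplotlib 3.10.9.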

Additional observations from a re-analysis of the deposited data

How the results depend on the processing

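No gene of the 32 was called by limma or edgeR under any alternative, and the lowest adjusted p was 0.0848, for Jup without lv_nc replicate 1. Over all genes limma called 3, against 5 with edgeR, 318 with DESeq2, 0 with a pseudocount of 0.1, 5 with a value of at least 10 in all 4 libraries, 24 with robust empirical Bayes and 0 without each replicate in turn. DESeq2 without each library, added after the data were seen, called 1547 and 217 genes (lv_nc replicates 1 and 2) and 56 and 61 (lv_Mettl3 replicates 1 and 2), and 6, 0, 0 and 0 of the 32. The cause of these differences was not tested. The numbers of the replicates are not stated to pair the samples; replicate differences of the 2 groups correlated at 0.33 over 10051 genes, and with the replicate number as a block limma called 3 genes and 0 of the 32, with a median log2 fold change of 0.06.

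The median log2 fold change of the 30 tested genes, 0.06, ran from -0.0026 to 0.19 without each replicate, 0.19 without lv_nc replicate 1. That of Mettl3, -0.03, ran from -0.086 to 0.027 and turned positive without lv_nc replicate 2 (0.017) or lv_Mettl3 replicate 2 (0.027). Of 290 other values of single genes, 286 kept direction and side of the threshold. The exception was Spint1, at 0.01 by limma, -0.80 by edgeR, -0.83 by DESeq2, -0.13 with a pseudocount of 10 and -0.024 scaled by library total.

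Without 1 replicate in turn, 16 of the 30 genes kept their sign, Cldn6 among them on 4 reads in all. The others ran from -0.045 to 0.23 (Tjp3), -1.46 to 0.58 (Pkp3), -0.14 to 0.022 (Scrib), -1.46 to 0.51 (Esrp2), -1.53 to 1.54 (Spint1), -0.12 to 0.27 (Spint2), -0.14 to 1.84 (Cdh16), -0.071 to 0.0077 (Ctnna1), -0.038 to 0.26 (Pard6b), -0.56 to 0.12 (Llgl2), -0.013 to 0.48 (Ovol1), -0.78 to 0.86 (Ovol2), -0.27 to 0.35 (Rab25) and -1.54 to 0.50 (Dsp). Depth limits the 15 low genes, whose intervals all exceed 2-fold where tested. Pkp3, Esrp2, Ovol2 and Dsp had at most 3 reads in every library, so their ranges carry no direction.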
